A study of Mus musculus with 15 samples.

Results

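The genes described here are 10 members of the mitochondrial pathway of apoptosis, namely Bax, Bak1, Bok, Bbc3, Pmaip1, Bid, Bik, Bcl2l1, Mcl1 and Apaf1. They were chosen by name, and every probe annotated to one of them was read in 15 arrays of mouse tibialis anterior (TA) muscle. Of the 10 genes, 9 had a probe, with 20 probes in all, and 8 had at least 1 probe above noise, out of 11458 genes with such a probe in the whole table. Bax, the pore former most often named beside Bak1, had no probe in the annotation used and is not analysed here. Pmaip1 had 3 probes and none passed the filter on dim probes.

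The study asked how an acute dose of doxorubicin, an anthracycline that damages DNA, changes gene expression in muscle, and whether blocking ligands of the activin receptor 2B alters that response. Mice labelled Dox + sACVR2B received sACVR2B-Fc, a soluble form of the receptor that binds these ligands, at 10 mg/kg and then doxorubicin at 15 mg/kg 48 hours later. Mice labelled Dox received doxorubicin at 15 mg/kg, and mice labelled Ctrl received the vehicle (PBS). All were C57BL/6 males (C57BL/6J in the study's methods) of 8 to 10 weeks without tumours, muscle was taken 20 hours after the doxorubicin or PBS injection, and each label had 5 arrays, 1 for each mouse.

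Cells commit to this form of death at the outer mitochondrial membrane. Bak1 and Bok, like Bax, can open pores in it, and Bcl2l1 and Mcl1 hold Bax and Bak1 back. The BH3-only proteins Bbc3 (PUMA), Pmaip1 (NOXA), Bid and Bik tip that balance towards opening. Cytochrome c then leaves the mitochondria and binds Apaf1, which assembles into the apoptosome and activates caspase 9. After DNA damage the transcription factor p53 is known to induce Bbc3, Pmaip1, Bax and Apaf1, and also Cdkn1a, the cell cycle inhibitor p21, and human skeletal muscle is known to hold little Apaf1 protein.

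Promoter sequence is shown for Cdkn1a, by whose level the arrays were split, and for Bbc3 and Apaf1, the members that moved with it most. It is taken from RefSeq with GRCm38.p6 coordinates, and windows ran from 250 bases before to 50 bases after an annotated start. Capitals in the sequences of Cdkn1a and Bbc3 mark the best pair of p53 consensus half-sites, each of 10 letters, searched on both strands with a spacer of at most 1 base. In the Apaf1 sequence, which covers the 250 bases before the start, capitals mark CG dinucleotides. Cdkn1a lies on the plus strand at chr17:29090923-29090952, Bbc3 on the plus strand at chr7:16309481-16309510 and Apaf1 on the minus strand at chr10:91082744-91082993.
Cdkn1a: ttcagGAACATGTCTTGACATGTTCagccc
Bbc3: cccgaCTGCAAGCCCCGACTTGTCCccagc
Apaf1: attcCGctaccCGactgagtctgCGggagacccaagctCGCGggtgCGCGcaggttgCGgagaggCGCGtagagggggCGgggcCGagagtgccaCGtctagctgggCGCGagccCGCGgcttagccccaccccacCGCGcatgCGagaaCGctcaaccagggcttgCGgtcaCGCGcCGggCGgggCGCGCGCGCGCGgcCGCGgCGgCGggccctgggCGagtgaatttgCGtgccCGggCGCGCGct
The Cdkn1a pair differed from the consensus at 1 of 20 letters, and 0.177% of all 32851 windows held a pair that close. The Bbc3 pair differed at 3 letters, and a pair with at most 3 mismatches stood in 11.7% of all windows. Both genes had more than 1 annotated start, and the window with the best pair is shown, whereas the shares are per window. The best pair in the other Cdkn1a window had 5 mismatches, and those in the other Bbc3 windows had 4 and 6. Of the other members scanned, Bax, which was not measured here, held a pair with 1 mismatch, Bok held one with 3, and the rest had at least 4. Pmaip1 was left out of the scan and Bik had no window, so neither was searched. The best pair in the Apaf1 window had 5 mismatches, and this window held 46 CG dinucleotides against a median of 7 over all windows. Windows of other members were also above that median, such as those of Bbc3 (34, 30 and 39) and Mcl1 (33), though a Bcl2l1 window held 1. A match is a match of letters only, and the absence of one says nothing about sequence outside the window.

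Signals were background-subtracted and quantile-normalised by the authors, so that values can fall below 0. Levels are given as the deposited signal, in arbitrary intensity units, and differences as log2 of the signal plus 50. Noise was estimated from values below 0, and a signal above 12.4 counted as above it. A probe was kept when it passed this in at least 5 arrays, which left 21307 probes, or 47.1% of the table. Where 1 value stands for a gene it comes from its brightest kept probe. The arrays were close to each other, with correlations between 0.967 and 0.994, and all 10 skeletal muscle fibre markers were detected, with summed signals of 199856 to 216302 under Dox + sACVR2B, 208127 to 235757 under Dox and 211963 to 235939 under Ctrl.

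The level of Cdkn1a did not follow the labels, and this bears on every comparison by label below. Its signal was 4560, 4047, 3623, 209 and 359 in the libraries labelled Dox + sACVR2B 1 to 5. It was 2359, 132, 4013, 3316 and 2694 in the libraries labelled Dox 1 to 5, and 4301, 295, 187, 4057 and 4634 in the libraries labelled Ctrl 1 to 5. Thus 10 libraries lay at 1000 or more, 3 labelled Dox + sACVR2B, 4 labelled Dox and 3 labelled Ctrl, and the other 5 lay between 132 and 359. Between the labels its log2 difference was 0.25 for Dox against Ctrl (SE 1.07; limma, adjusted p = 0.953), and the 3 Ctrl libraries at 1000 or more, at 4057 to 4634, were among the highest of all. Whether each label is attached to the right array could not be settled here, so each treatment below is the treatment as labelled, and every difference between labels carries this doubt. For this reason the members are given both by label and by the side of the Cdkn1a signal of 1000 on which a library lay. The second grouping rests on a level measured in the same arrays and not on labels, so it is a description and no test was run on it.

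By label, limma called 0 of the 8 members in each comparison, at an adjusted p under 0.05 with Benjamini-Hochberg correction across the 21307 kept probes. The background was the same, with 0.0% of kept probes called in Dox against Ctrl and 0.0% in Dox + sACVR2B against Dox, and the smallest adjusted p over all probes was 0.208 and 0.99 in these comparisons. At an unadjusted p under 0.05, which 10.0% of kept probes reached in Dox against Ctrl and 4.13% in Dox + sACVR2B against Dox, there were 2 of the 8 members in the first comparison, Bok and Bik, both lower under Dox, and 0 of 8 in the second. Split by direction, 4.8% of probes reached it higher and 5.2% lower in Dox against Ctrl, and 2.24% higher and 1.89% lower in Dox + sACVR2B against Dox. Counted over the 14 kept member probes these were 2 and 0. The first became 1 without the library labelled Ctrl 2 or the one labelled Dox 5, and the second became 1 without Dox 1 and 2 without Dox 2. The members' median log2 difference was -0.09 in Dox against Ctrl, with 2 above 0 and 6 below, and -0.02 in Dox + sACVR2B against Dox, with 4 above 0 and 4 below. Over all kept probes 51.9% were above 0 in the first comparison and 51.2% in the second. The comparisons share the Dox arrays, so opposite signs between them are not independent. From the microarrays of this experiment the paper reported Foxo1, REDD1, Ulk1 and Becn1, among others, as significantly higher under doxorubicin after adjustment. For Dox + sACVR2B against Dox it marked Psmd8 and Oxct1 as significant among the atrophy genes it listed. It also reported a small increase under doxorubicin of a gene set for the intrinsic (mitochondrial) pathway of apoptosis, without an effect of sACVR2B-Fc. For a caspase cascade set it reported a trend. Both came from a gene set test that was not run here, so the members' median above is not the same measure. With the deposited labels no gene was called here, and the reason for this difference was not tested.

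**Figure D1:**
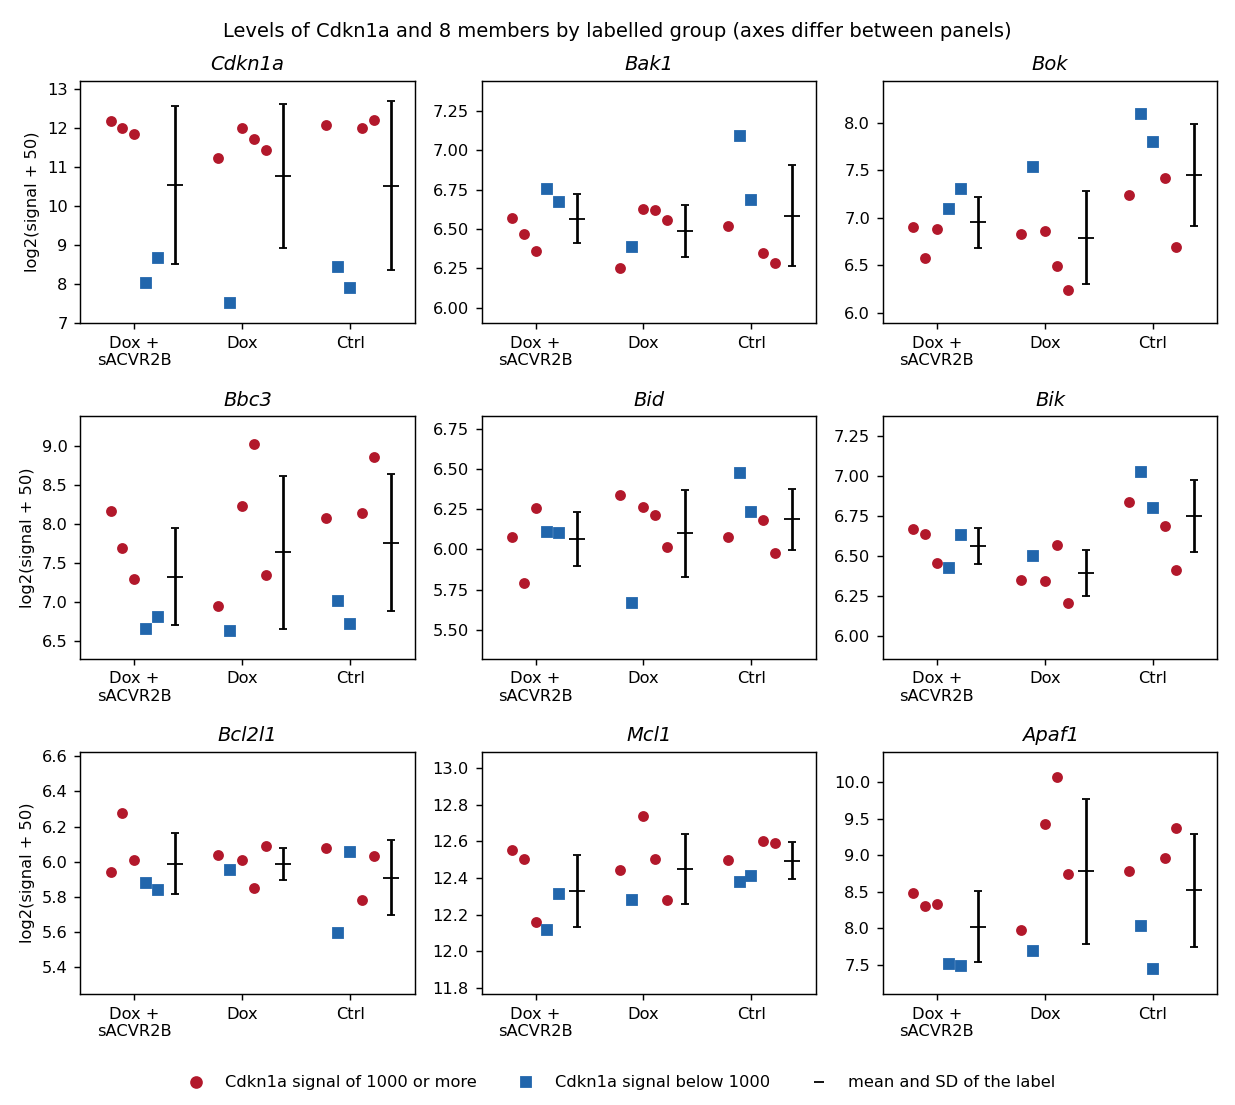
Levels of Cdkn1a and the 8 members with a kept probe, as log2 of the signal plus 50, in each library by label (n = 5 each). Circles are libraries with a Cdkn1a signal of 1000 or more, squares are the others, and the bar is the mean with its SD. Each label holds both kinds of library, and for Bbc3, Apaf1 and Bok the circles and squares of a label do not mix.

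**Figure D2:**
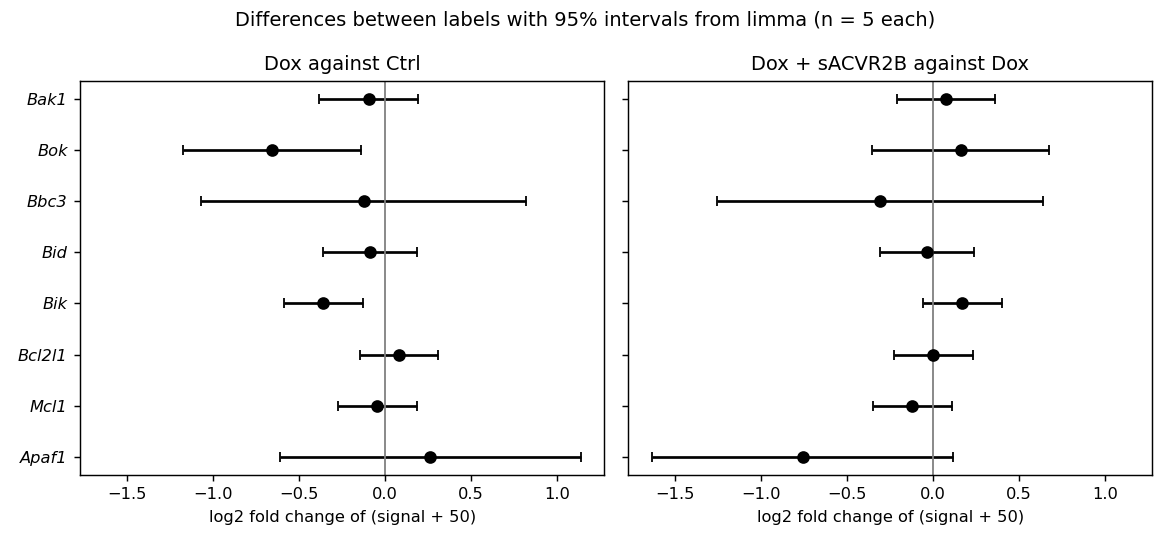
Log2 differences between labels for the 8 members, on the scale of the signal plus 50, with 95% intervals from limma (n = 5 each). In Dox against Ctrl the intervals of Bok and Bik lie below 0, before adjustment for multiple testing, and in Dox + sACVR2B against Dox every interval includes 0.

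Among the pore formers, Bok had a lower mean under Dox than under Ctrl, a difference that did not pass the adjusted test. Its signals were 69.5, 45.4, 67.6, 86.5 and 108.5 under Dox + sACVR2B, 63.6, 136, 66.1, 39.9 and 25.6 under Dox, and 102, 222, 172, 121 and 53.2 under Ctrl. The Dox and Ctrl values overlapped, with the library labelled Dox 2 above 3 of the Ctrl libraries and Ctrl 5 below 3 of the Dox libraries. Its log2 difference was -0.66 for Dox against Ctrl (SE 0.24, 95% interval -1.17 to -0.14; limma, unadjusted p = 0.0157, adjusted p = 0.402). For Dox + sACVR2B against Dox it was 0.16 (95% interval -0.36 to 0.68; limma, adjusted p = 0.996). A second Bok probe was above noise in 2 arrays only and was not tested.

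Bok also differed between the sides of the Cdkn1a signal, in the same direction under every label. Its signal ranged from 25.6 to 121 with a median of 64.9 in the 10 libraries at 1000 or more, against 86.5 to 222 with a median of 136 in the other 5, a difference of log2 medians of -0.70. In all, 8 of the 10 lay below the lowest of the 5. Within Dox + sACVR2B the libraries at 1000 or more had 45.4 to 69.5 and the others 86.5 to 108.5. Within Dox they had 25.6 to 66.1 and the other library 136, and within Ctrl they had 53.2 to 121 and the others 172 to 222. Such a separation downwards under every label, a pattern chosen after the values were seen, held for 3.62% of all kept probes.

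Bak1, which lies on the mitochondrial membrane of resting cells, had low signals throughout. Its signals ranged from 32.3 to 57.8 with a median of 44.9 under Dox + sACVR2B, from 26.2 to 49.0 with a median of 44.2 under Dox, and from 27.8 to 86.0 with a median of 41.6 under Ctrl. The log2 difference was -0.10 for Dox against Ctrl (SE 0.14; limma, adjusted p = 0.835) and 0.08 for Dox + sACVR2B against Dox (SE 0.14; limma, adjusted p = 0.999). In the libraries with a Cdkn1a signal of 1000 or more it lay between 26.2 and 49.0, against 33.5 to 86.0 in the others, where 4 of 5 libraries exceeded the highest of the 10. The remaining library, labelled Dox 2, had 33.5. Without it the ranges of Bak1 did not overlap, with the libraries at 1000 or more lower, as was so for 1.97% of kept probes.

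Among the BH3-only genes Bbc3 varied most between libraries. Its brightest probe gave signals of 237, 158, 107.5, 51.0 and 62.8 under Dox + sACVR2B, 73.8, 48.8, 251, 472 and 114 under Dox, and 221, 79.4, 55.4, 233 and 413 under Ctrl. High and low libraries occurred under all 3 labels, and the log2 difference was -0.12 for Dox against Ctrl (95% interval -1.07 to 0.82; limma, adjusted p = 0.944) and -0.31 for Dox + sACVR2B against Dox (95% interval -1.26 to 0.64; limma, adjusted p = 0.996). Both intervals include a 2-fold decrease, which these data therefore do not exclude.

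By the Cdkn1a signal Bbc3 fell into a high and a low set that barely touched. The 10 libraries at 1000 or more had signals of 73.8 to 472 with a median of 227, against 48.8 to 79.4 with a median of 55.4 in the other 5, a difference of log2 medians of 1.39. The overlap came from the library labelled Dox 1, with 73.8, and the library labelled Ctrl 2, with 79.4, and the ranges did not overlap once either was left out. Under each label the libraries at 1000 or more lay above the others, at 107.5 to 237 against 51.0 to 62.8 within Dox + sACVR2B, 73.8 to 472 against 48.8 within Dox, and 221 to 413 against 55.4 to 79.4 within Ctrl. The 2 other kept Bbc3 probes were dim, between -1.0 and 46.5, and did not follow, with differences of log2 medians of -0.14 and 0.04. Probe positions within the gene were not used here, so it is not known which transcripts each probe reads.

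Pmaip1, the other BH3-only gene known as a p53 target, was near noise. Its brightest probe gave 2.4, 10.6, 8.3, -6.1 and 2.1 under Dox + sACVR2B, 9.1, -5.3, 15.8, 82.8 and 23.6 under Dox, and 1.5, -9.7, -0.2, -0.8 and 16 under Ctrl. It passed the noise threshold in 4 libraries, those labelled Dox 3, Dox 4, Dox 5 and Ctrl 5, all with a Cdkn1a signal of 1000 or more. The library labelled Dox 4 had the highest signal, 82.8, and was the only one above noise on a second Pmaip1 probe, at 27.8. It was also the library with the highest Bbc3 and the highest Apaf1 signal. Since the probe was not kept, Pmaip1 was not tested between labels.

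Bik, a BH3-only gene whose protein is known to sit on the endoplasmic reticulum, was the other member lower under Dox at an unadjusted p. Its signals were 51.5, 49.5, 37.7, 35.9 and 48.8 under Dox + sACVR2B, 31.4, 40.3, 31.1, 44.8 and 23.8 under Dox, and 64.4, 79.8, 61.2, 53 and 35.1 under Ctrl. The Ctrl libraries other than Ctrl 5 were above all Dox libraries. The log2 difference was -0.36 for Dox against Ctrl (SE 0.11, 95% interval -0.59 to -0.13; limma, unadjusted p = 0.004, adjusted p = 0.343) and 0.17 for Dox + sACVR2B against Dox (95% interval -0.06 to 0.40; limma, adjusted p = 0.996). Between the sides of the Cdkn1a signal Bik differed less than Bok did, with 23.8 to 64.4 in libraries at 1000 or more and 35.9 to 79.8 in the others, and a difference of log2 medians of -0.12.

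The RNA came from whole muscle, and fewer cells of a type cannot be told apart from less RNA per cell. The endothelial markers moved with Bok and Bik in Dox against Ctrl. All 6 of 6 were detected, and their summed signal was 3507 to 4161 under Dox + sACVR2B, 3387 to 4259 under Dox and 4028 to 5301 under Ctrl. The fibroblast markers, again 6 of 6, summed to 21361 to 35164 under Dox + sACVR2B, 18421 to 28285 under Dox and 24837 to 29742 under Ctrl. On the sides of the Cdkn1a signal the fibroblast sum moved with Bok too. It was 18421 to 30318 in the libraries at 1000 or more and 27604 to 35164 in the others. The endothelial sum did not move with Bok there, with medians of 3957 and 3919. By label the fibroblast median was 30318 under Dox + sACVR2B and 27010 under Ctrl, while that of Bok was 69.5 and 120.5. In Dox against Ctrl the red cell markers, 4 of 6 detected, summed to medians of 9464 under Dox and 14936 under Ctrl (6336 to 17259 against 11701 to 21111), and the Schwann cell markers, 2 of 6, to 2001 and 2285 (1671 to 3065 against 2150 to 2784). Leukocyte markers, 5 of 10 detected, summed to 1071 to 2599 in the libraries with a Cdkn1a signal of 1000 or more against 1268 to 2875 in the others. Their medians there, 1548 and 2502, went the same way as Bok. The red cell medians on these sides, 12160 and 14846, and the Schwann cell medians, 2188 and 2285, did so too. The adipocyte medians, 385 and 250, did not. In Dox against Ctrl the leukocyte median went the other way from Bok and Bik, with 1487 under Dox and 1343 under Ctrl. The adipocyte markers, 3 of 7 detected, also went the other way between these labels, with medians of 389 and 363. The part of these cells in the levels of Bok and Bik was not tested.

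Bid, which caspase 8 cleaves to link death receptors to mitochondria, stayed close to noise on both of its probes. The brighter one ranged from 5.3 to 26.4 under Dox + sACVR2B, from 0.9 to 30.9 under Dox and from 13.0 to 39.1 under Ctrl. Its log2 difference was -0.09 for Dox against Ctrl (SE 0.13; limma, adjusted p = 0.845) and -0.03 for Dox + sACVR2B against Dox (SE 0.13; limma, adjusted p = 0.9998). It had no split by Cdkn1a, with medians of 20.1 in the libraries at 1000 or more and 18.9 in the others. At these signals the offset of 50 compresses any change, and small differences in Bid would not be seen.

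Of the members that restrain pore formation, Mcl1 was far above noise in every library and varied little. Its signals were 5945, 5754, 4528, 4390 and 5033 under Dox + sACVR2B, 5514, 4925, 6777, 5754 and 4925 under Dox, and 5730, 5269, 5387, 6160 and 6116 under Ctrl. The groups overlapped, with a log2 difference of -0.05 for Dox against Ctrl (95% interval -0.27 to 0.18; limma, adjusted p = 0.913) and -0.12 for Dox + sACVR2B against Dox (95% interval -0.35 to 0.11; limma, adjusted p = 0.996). By the Cdkn1a signal Mcl1 ranged from 4528 to 6777 in the libraries at 1000 or more, against 4390 to 5387 in the others. In all, 8 of the 10 exceeded the highest of the 5, and the difference of log2 medians was 0.19.

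Bcl2l1 (BCL-XL), the other restraining member, was at the limit of detection on this array. Its brightest probe ranged from -1.7 to 27.5 over all 15 libraries and was above noise in 8, a second probe was above noise in 6, and the other 2 probes in 0. The log2 difference was 0.08 for Dox against Ctrl (SE 0.11; limma, adjusted p = 0.828) and 0.0014 for Dox + sACVR2B against Dox (SE 0.11; limma, adjusted p = 0.9998). These values do not show how abundant Bcl2l1 mRNA is, only that these probes could not resolve it.

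Apaf1, the scaffold of the apoptosome, had the widest spread between libraries together with Bbc3. Its brightest probe gave 307, 265, 271, 133 and 129 under Dox + sACVR2B, 202, 156, 638, 1019.7 and 378 under Dox, and 389, 210.3, 124, 449.5 and 612 under Ctrl. The Dox range enclosed 7 of the 10 other values, and the labels differed by less than this spread, with a log2 difference of 0.26 for Dox against Ctrl (95% interval -0.61 to 1.14; limma, adjusted p = 0.856) and -0.76 for Dox + sACVR2B against Dox (95% interval -1.63 to 0.12; limma, unadjusted p = 0.0849, adjusted p = 0.996). The library labelled Dox 4 carried much of the second value, which was -0.44 without it, and without it the Dox against Ctrl value was -0.06.

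The 3 Apaf1 probes differed in the same direction between the sides of the Cdkn1a signal. On the brightest one the libraries at 1000 or more ranged from 202 to 1019.7 with a median of 384, against 124 to 210.3 with a median of 133 in the others, a difference of log2 medians of 1.25. The overlap again lay between the libraries labelled Dox 1, with 202, and Ctrl 2, with 210.3. A second probe gave nearly equal signals, with a median ratio of 1.00 between them. The third probe was dimmer and was the 1 of 14 kept member probes whose ranges did not overlap at all, with 24.5 to 127 in the libraries at 1000 or more and -7.1 to 13.6 in the others. It was above noise in all 10 libraries at 1000 or more and in 1 of the other 5, so it passed the filter through the side where it was high and adds no support to the brighter probes.

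**Figure D3:**
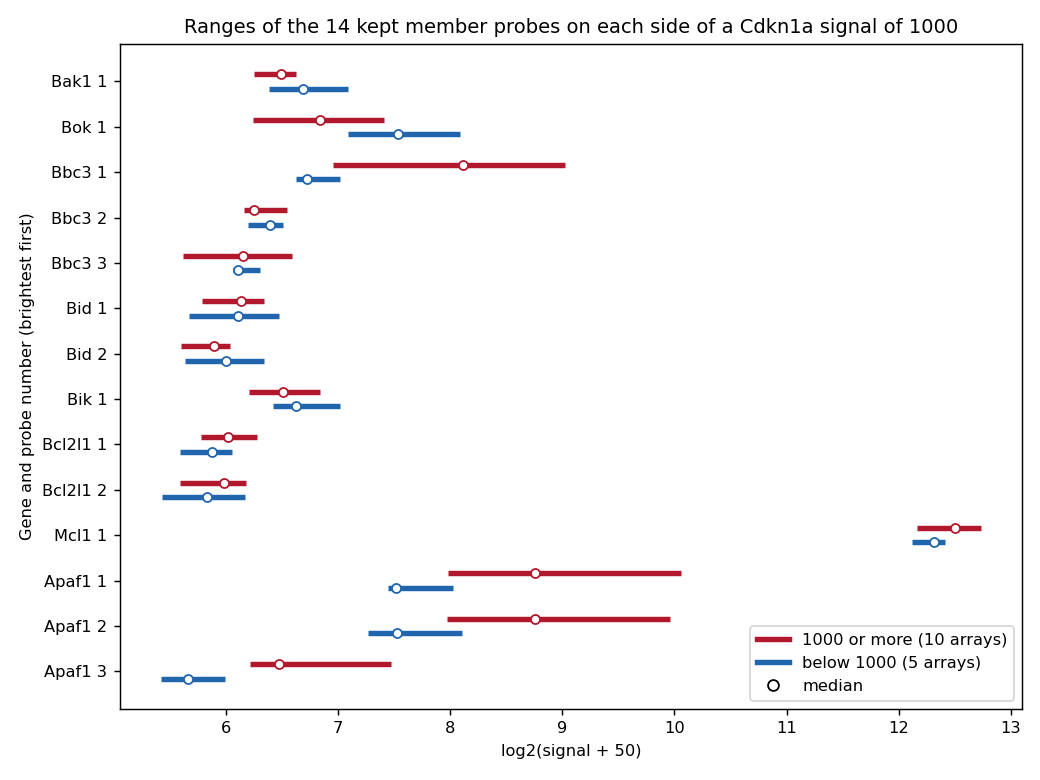
Lowest, median and highest level of each of the 14 kept member probes, as log2 of the signal plus 50, in the 10 libraries with a Cdkn1a signal of 1000 or more (upper bar) and the 5 others (lower bar). The brightest Bbc3 probe and all 3 Apaf1 probes reach well above the other libraries, Bok lies lower, and the other probes differ less in their medians.

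Over the 8 members, then, 2 had log2 medians at least 0.5 higher in the libraries with a Cdkn1a signal of 1000 or more (Bbc3 and Apaf1), 1 had them at least 0.5 lower (Bok), and 5 lay within 0.2 of 0. Of all kept probes 2.81% were that much higher and 2.79% that much lower, a step chosen after the values were seen. By their brightest probes 0 of the 8 members had ranges without overlap, against 3.48% of all kept probes, 1.99% higher and 1.49% lower. Leaving out the library labelled Dox 1, or the one labelled Ctrl 2, made this 2 of 8, Bbc3 and Apaf1, both higher, against 2.32% and 2.26% of probes higher in these settings. Separation upwards within every label held for Bbc3 and Apaf1 and for 4.39% of kept probes.

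**Figure D4:**
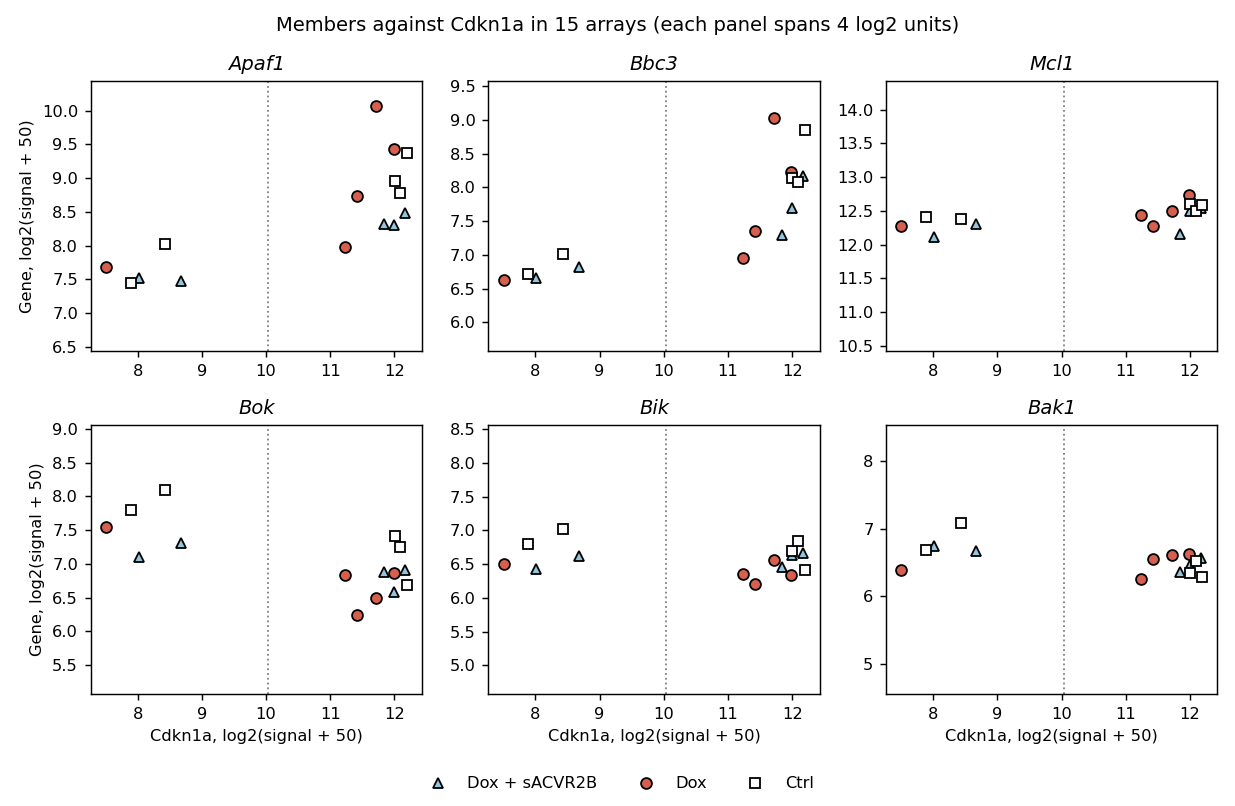
Levels of 6 members against Cdkn1a in the 15 libraries, both as log2 of the signal plus 50, with the dotted line at a Cdkn1a signal of 1000 and symbols for the labels. Apaf1 and Bbc3 are spread widely to the right of the line, Bok is lower there, and Mcl1, Bik and Bak1 change little across it.

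Within the 10 libraries at 1000 or more, Bbc3 and Apaf1 still differed several-fold and moved with each other, with a Pearson r of 0.87 and a Spearman rho of 0.87 (0.72 for r without the libraries labelled Dox 1 and Dox 4). With Cdkn1a itself the Pearson r over the same libraries was 0.61 for Bbc3 and 0.27 for Apaf1. The library labelled Dox 4 had the highest signal of both Bbc3 and Apaf1, 472 and 1019.7, though its Cdkn1a signal of 3316 was below those of 7 others. By label within this side Apaf1 was 265 to 307 under Dox + sACVR2B, 202 to 1019.7 under Dox and 389 to 612 under Ctrl, so that the Ctrl libraries lay above the Dox + sACVR2B ones and inside the Dox range. The genes most like Apaf1 over these 10 libraries were Gtse1 (r 0.996, rho 0.98), a p53-regulated protein of dividing cells, and the histone gene H2bc12 (r 0.97, rho 0.95). Those most like Bbc3 were Trafd1 (r 0.96, rho 0.90) and the kinase gene Plk2 (r 0.96, rho 0.98). These were picked as the highest of 11457 genes and are a description of 10 libraries that share 1 normalisation, with no test.

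The rest of the pathway gave smaller differences. Of 34 further genes of mitochondrial apoptosis, 21 had a kept probe, 0 were called between labels, and the median log2 difference was -0.04 in Dox against Ctrl (8 above 0, 13 below) and -0.01 in Dox + sACVR2B against Dox (9 above, 12 below). At an unadjusted p under 0.05, Bcl2l12 was higher by 0.23 and the mitophagy receptor gene Bnip3l lower, at -0.20, under Dox (limma, adjusted p = 0.395 and 0.486). That is 1 of 21 higher and 1 of 21 lower, near the background of 4.8% and 5.2% of all kept probes. None of the 21 had ranges without overlap on the sides of the Cdkn1a signal. Bcl2l11 (BIM), a BH3-only gene, ranged from 128 to 273 in the libraries at 1000 or more and from 129 to 159 in the others. Caspase 9, the partner of Apaf1, had 219.9 to 339.6 against 259 to 294, and Cycs, which encodes cytochrome c, 11683 to 15388 against 13621 to 15149. The restraining genes Bcl2 (56.9 to 149 against 75.8 to 158) and Bcl2l2 (1024 to 1426 against 1004 to 1302) overlapped as well.

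Among other genes known as p53 targets, some separated between the sides of the Cdkn1a signal and some did not. Of 16 listed, 14 had a kept probe, and for 9 of them the ranges did not overlap. All 9 were higher in the libraries at 1000 or more, a separation that held for 1.99% of all kept probes. Cdkn1a, which made the split, is itself known as a p53 target, and the list was chosen with earlier results of these data known. The count is therefore a description only. Mdm2, which encodes the ligase that degrades p53, ranged from 2383 to 4540 against 1620 to 1853, and Ccng1, a cyclin gene, from 13103 to 17713 against 10143 to 12245. Of the 9, 7 were above noise in all libraries, whereas Gtse1 and Eda2r were above it in 0 and 2 of the 5 low libraries and passed the filter through the side where they were high. The other 5 overlapped (Sesn2, Phlda3, Plk2, Tnfrsf10b and Pidd1), with differences of log2 medians of -0.01 for Phlda3 and 0.11 for Tnfrsf10b. Between labels 0 of the 14 were called in either comparison. Their median log2 difference was 0.23 in Dox against Ctrl, with 12 above 0 and 2 below. In Dox + sACVR2B against Dox it was -0.39, with 0 above 0 and 14 below. Of these, 2 were lower at an unadjusted p under 0.05 (limma), as were 1.89% of all kept probes. Over all kept probes 51.9% were above 0 in the first comparison and 51.2% in the second. Of the libraries with a Cdkn1a signal below 1000, 1 was labelled Dox, 2 Dox + sACVR2B and 2 Ctrl. The part of this imbalance in the signs was not tested. By the Cdkn1a signal, Bbc3 and Apaf1 shared the direction of the 9 genes that separated, with the overlap given above. The other 6 members with a kept probe did not separate upwards.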

How the data were processed

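RNA of TA muscle from 5 mice per label was hybridised to Illumina mouse bead arrays. The authors deposited background-subtracted, quantile-normalised intensity values without a log transform, which were checked to share 1 distribution (sorted arrays differed by at most 0.5). Signals of all probes in 15 arrays were used, with gene names from the platform annotation. A second deposited table held 30 columns (15 of signal and 15 of detection p-value) whose names matched no label, and it was not used. An offset of 50 was added before log2. Probes above 12.4 (1.645 times the SD of 7.52 estimated from negative values) in at least 5 arrays were kept. All 3 labels were fitted together in limma 3.58.1 (R 4.3.3), with lmFit, eBayes and Benjamini-Hochberg adjustment over 21307 probes, after the script was tested on simulated data. Every member was named with all its probes, and the brightest kept probe stood for a gene. From the other lists those called, those of smallest p, those without overlap and a few fixed genes were eligible to be named. Members and lists were chosen with earlier results of these data known. Alternatives were no filter, 2 labels per fit, array weights, a trended robust prior, the replicate block, offsets of 26 and 100, cyclic loess, the median over probes, Cdkn1a thresholds of 500 and 2000, and leaving out each array. Depth has no meaning for arrays, and the number of arrays limits the precision.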

Additional observations from a re-analysis of the deposited data

Results flagged for a closer look

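Of 36 sets of 5 libraries examined, 1 held a library set apart from the other 4 of its label. It was Cdkn1a in the library labelled Dox 2, with a log2 level of 7.50 and a signal of 132. Its gap to the next library made up 0.832 of the range of the label, above the critical value of 0.71. Chance sets a value apart in about 1 of 20 such sets. No member had a library set apart in this way, Apaf1 and Bbc3 included.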

How the results depend on the processing

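No setting called a member by adjusted p (0 in every fit, smallest 0.268 with all arrays and 0.137 with 1 array left out; limma). Apart from leaving out arrays, 188 values kept their direction and side of the threshold and 6 changed sign. Also 1 count moved, from 0 to 1 with array weights. It was that of member probes at an unadjusted p under 0.05 (limma) in Dox + sACVR2B against Dox. With array weights, in Dox against Ctrl, Apaf1 went from 0.26 to -0.0179 and Bid from -0.09 to 0.0166. In Dox + sACVR2B against Dox, Bcl2l1 became -0.0029 with an offset of 26, -0.0056 with cyclic loess and -0.0083 as the median over kept probes. By that median Bbc3 went from -0.31 to 0.013. With the replicate block, Bok stayed at -0.66 (limma, adjusted p = 0.403) and 0 members were called; the numbers do not pair the mice (correlations -0.21 to 0.34).

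Leaving out 1 array gave log2 differences in Dox against Ctrl of -0.0598 to 0.54 for Apaf1, -0.17 to 0.03 for Bak1, -0.47 to 0.15 for Bbc3, -0.15 to 0.0201 for Bid, -0.84 to -0.49 for Bok and -0.44 to -0.29 for Bik. In Dox + sACVR2B against Dox it gave -1.03 to -0.44 for Apaf1, -0.56 to 0.0369 for Bbc3, 0.022 to 0.35 for Bok, 0.017 to 0.13 for Bak1, -0.0703 to 0.0392 for Bcl2l1 and -0.14 to 0.0346 for Bid. Members without overlap between the sides of the Cdkn1a signal numbered 0 to 2, with 2 without Dox 1 or without Ctrl 2 and 1, Bak1, without Dox 2. Cyclic loess left this at 0. Thresholds of 500 and 2000 could not change it, since no library lay between 359 and 2359 and the 2 sets stayed the same. The causes were not tested. Bid, Bcl2l1 and Pmaip1 lay so near noise that their changes are not resolved.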
